A study of Mus musculus with 32 samples.

Results

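The genes described here are 10 glycolysis enzymes, Hk2, Pfkp, Aldoa, Gapdh, Pgk1, Pgam1, Eno1, Eno1b, Pkm and Ldha, in brain tumors of 2 mouse models. They were chosen by symbol: the rows of the tumor count table whose Ensembl identifiers carry these names, 10 of the 37310 genes in the table. The rule reads symbols only, although the enzymes were picked with earlier results of these data known, and all 10 passed the filter on low counts. RNA from biopsies of 6 GMYC and 8 GTML tumors had been counted per gene. The study leaves a GTML tumor out of some of its own comparisons and describes a GTML tumor with a signature of another medulloblastoma subgroup. The labels do not say which, so all 8 were kept. In both models the Glt1 promoter, which drives the glutamate transporter of astroglial cells, expresses the tetracycline-regulated transactivator tTA, which switches on an oncogene from a TRE element when no doxycycline is given. The oncogene is MYC in GMYC mice (Glt1-tTA/TRE-MYC, FVBN strain) and MYCN in GTML mice. Every tumor therefore carried an active MYC family transgene, and no tissue without one entered the comparison. The labels give neither age nor sex for a tumor, nor whether the tumors came from separate mice, so the p-values measure the spread between these biopsies.

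Glycolysis turns glucose into pyruvate in the cytosol and yields ATP and precursors for biosynthesis. Hexokinase and phosphofructokinase commit the sugar, aldolase splits it, the enzymes from GAPDH to pyruvate kinase harvest ATP and NADH, and lactate dehydrogenase regenerates NAD+ from pyruvate. Several enzymes are textbook targets of both MYC and hypoxia-inducible factors, and proliferating tumors, medulloblastoma among them, commonly express the forms HK2, PKM and LDHA.

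Total counts lay between 6218378 and 7279811 in GMYC tumors and between 4602294 and 6317404 in GTML tumors. Levels are given as CPM, counts scaled to a common library size, after TMM normalization, and fold changes are GTML over GMYC on the log2 scale, so a negative value is a higher level in GMYC tumors. Myc lay between 33.4 and 166 CPM in GMYC and between 2.6 and 8.68 in GTML tumors. Mycn lay between 7.65 and 34.4 CPM in GMYC and between 119 and 191 in GTML tumors, and neither gene overlapped between the models. These are rows of mouse genes from reads aligned to the mouse genome, while the study describes its MYC transgene as human. How far these rows count transgene reads was not tested. GMYC tumor 6 stood apart, with 33.4 CPM of Myc against 134 or more in the other GMYC tumors, and with 34.4 CPM of Mycn, the highest of that model. Without it, 2 enzymes (Pgam1 and Eno1b) were higher in GMYC tumors, against 7.96% of all genes. Otx2, a marker of the medulloblastoma identity of both models, differed by 0.03 ± 0.11 (SE; adjusted p = 0.849 in edgeR). It is 1 of 8 genes listed for this identity, of which 7 were tested. Of these, 1 was higher in GMYC tumors (Tubb3, −0.44 ± 0.12, adjusted p = 0.0226, edgeR). Another 1 was higher in GTML tumors (Lmx1a, 3.49 ± 0.81 from very low levels, adjusted p = 0.0102, edgeR). Small nucleolar RNAs took at least 0.366% of the counts in GMYC 1 to 4 and GTML 1 and 2 (the higher side) and at most 0.272% in GMYC 5 and 6 and GTML 3 to 8 (the lower side). This split is no label of the study and falls unevenly over the models, so values within each side are given where they differ. It follows the order in which the tumors are listed, with all tumors of the higher side before those of the lower side. The study's methods describe 7 GTML tumors as generated earlier and also mention new ones, and its results cite earlier work for all 8. The 6 GMYC tumors were sequenced for the study. The labels do not say which GTML tumors are new. Model and source of the data can therefore not be told apart. Of 5 red blood cell genes, 4 were higher in GMYC tumors (the globins Hba-a1, Hba-a2, Hbb-bs and Hbb-bt, not Alas2). The fold changes of the globins ran from −1.78 (Hbb-bs) to −2.55 (Hbb-bt). Alas2 lay at 35.5 ± 16.6 CPM in GMYC (SD, n = 6) and 50.8 ± 30 in GTML tumors (SD, n = 8). The summed level of the 5, Alas2 included, was 53.4 to 176 CPM in GMYC and 41.6 to 134 in GTML tumors. The part of blood in the enzymes' values was not tested. In biopsies, fewer cells of a type and less RNA per cell cannot be told apart.

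Of the 10 enzymes, 3 were higher in GMYC tumors and 0 in GTML tumors (edgeR's quasi-likelihood test, Benjamini-Hochberg adjusted p under 0.05 over 21024 genes). Over all genes tested, 9.71% were higher in GMYC and 11.5% in GTML tumors, and over protein-coding genes 7.81% and 12.2%. With TMM factors taken from thinly counted genes, the split over all genes was 12.9% and 9.43%, and 5 enzymes were higher in GMYC tumors. The enzymes that passed were Pgam1, Pgk1 and Eno1b, all in the part of the pathway below GAPDH. Eno1b is another row for alpha enolase, 99.5% identical to Eno1 over the aligned transcript. Eno1 itself did not pass (adjusted p = 0.0874, edgeR). The fold change was below 0 for 8 of the 10 and its median was −0.29, against 47.5% of all genes below 0 and a median of 0.04. Hk2 and Pfkp, from the top of the pathway, had fold changes above 0 that did not pass the test. Their unadjusted p-values in edgeR were 0.69 and 0.0969, so 0 enzymes were higher in GTML tumors at an unadjusted p under 0.05, and DESeq2 and limma-voom also called 0. Both of these tools called 3 enzymes higher in GMYC tumors, against 12.1% (DESeq2) and 11.4% (limma-voom) of all genes. At an unadjusted p under 0.05, edgeR gave 7. The largest p of these was that of Gapdh (0.0381, edgeR), which ranked 7222nd by p among the 21024 genes, in either direction. Without GTML tumor 2, 5 enzymes were higher in GMYC and 0 in GTML tumors, against 15.1% and 15.6% of all genes. On the lower side of the small nucleolar RNA split 5 and 0 were, against 6.69% and 6.66% of all genes, and on the higher side, with 2 GTML tumors, 0 and 0, against 0.0106% and 0%.

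**Figure D1:**
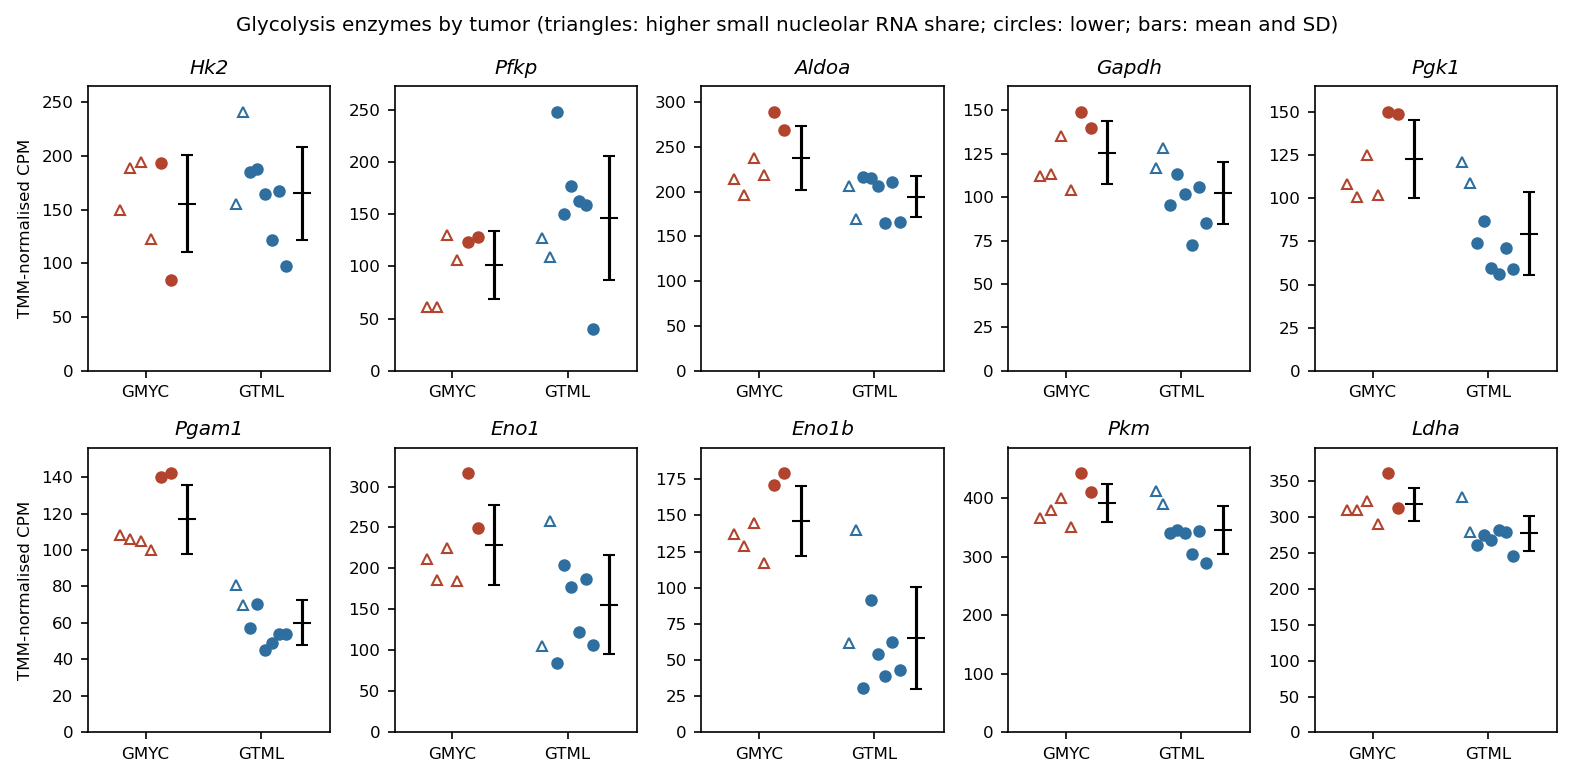
Normalized level of each glycolysis enzyme (y axis, TMM-normalized CPM from 0) in the 6 GMYC and 8 GTML tumors; each point is a tumor, triangles have the higher and circles the lower share of small nucleolar RNA, and bars give the mean and SD. For Pgam1 the models do not overlap (lowest GMYC tumor 100, highest GTML tumor 80.8), whereas for Hk2 they cover nearly the same range.

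Hexokinase 2 phosphorylates glucose and is the hexokinase typical of embryonic and tumor tissue. Hk2 lay between 84.4 and 194 CPM in GMYC tumors (median 170) and between 97.8 and 241 in GTML tumors (median 166). The ranges overlapped almost fully, and the highest value was that of GTML tumor 2. The fold change was 0.08 ± 0.21 (SE; adjusted p = 0.789, edgeR), and it was −0.01 without GTML tumor 2.

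Phosphofructokinase, platelet type, encoded by Pfkp, catalyses the committed step from fructose 6-phosphate. Pfkp ranged from 61.1 to 130 CPM in GMYC tumors, with a median of 115, and from 40.3 to 248 in GTML tumors, with a median of 154. In 5 GTML tumors (tumors 3 to 7) the level exceeded that of every GMYC tumor, while GTML tumor 8 had the lowest of all 14 values. The fold change was 0.53 ± 0.30 (SE; adjusted p = 0.206, edgeR) with all tumors and 0.67 ± 0.22 (adjusted p = 0.0478, edgeR) without GTML tumor 8. The annotated exons of Pfkp share 748 bases (5.6%) with Pitrm1 on the opposite strand, and whether counting used strand is not given in the sources used here.

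Aldolase A, the main aldolase of muscle and of most tumors, cleaves fructose 1,6-bisphosphate. Aldoa lay between 196 and 289 CPM in GMYC tumors (median 229) and between 165 and 216 in GTML tumors (median 206). GMYC tumors 3 to 6 lay above all GTML tumors. The fold change of −0.29 ± 0.11 (SE) did not pass the test (adjusted p = 0.0639, edgeR). When the split by small nucleolar RNA entered the fit it was −0.37 ± 0.11 and passed (adjusted p = 0.0359, edgeR).

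GAPDH oxidizes glyceraldehyde 3-phosphate and makes the NADH of glycolysis. Gapdh ranged from 104 to 149 CPM in GMYC tumors, with a median of 124, and from 72.4 to 128 in GTML tumors, with a median of 104, with a fold change of −0.29 ± 0.13 (SE; adjusted p = 0.111, edgeR). The highest values were those of GMYC tumors 5, 6 and 3. On the higher side of the small nucleolar RNA split the fold change was 0.09, and on the lower side it was −0.60.

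Phosphoglycerate kinase 1, encoded by Pgk1 on the X chromosome, catalyses the earlier of the ATP-yielding steps. Pgk1 lay between 101 and 150 CPM in GMYC tumors (median 116) and between 56.3 and 121 in GTML tumors (median 72.6). GTML tumors 1 and 2, at 121 and 109 CPM, lay among the GMYC tumors, and the other 6 GTML tumors lay at 86.6 CPM or less, under every GMYC tumor. The fold change was −0.62 ± 0.18 (SE; adjusted p = 0.0274, edgeR). The call was lost without GMYC tumor 3, 5 or 6 or GTML tumor 5 (adjusted p = 0.0534 to 0.0657, edgeR), and when the split by small nucleolar RNA entered the fit (−0.57 ± 0.19, adjusted p = 0.0539, edgeR). On the higher side of the small nucleolar RNA split, which holds GTML tumors 1 and 2, the fold change was 0.09 ± 0.15, and on the other side it was −1.15 ± 0.18 (adjusted p = 0.824 and 0.0102, edgeR).

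Phosphoglycerate mutase 1, encoded by Pgam1, moves the phosphate of 3-phosphoglycerate to the next carbon, and had the clearest difference of the 10 enzymes by its p-value. Pgam1 lay between 100 and 142 CPM in GMYC tumors (median 107) and between 45 and 80.8 in GTML tumors (median 55.7). Every GMYC tumor lay above every GTML tumor, a pattern found for 2.48% of all genes tested, with 2.14% the other way round. The means were 117 ± 18.8 CPM (SD, n = 6) and 60 ± 12.3 (SD, n = 8), and the fold change was −0.96 ± 0.14 (SE; adjusted p = 0.00184, edgeR), the 54th smallest p of the 21024 genes. The call held without any single tumor. Its fold change was below 0 on both sides of the small nucleolar RNA split, at −0.47 ± 0.14 on the higher side (adjusted p = 0.296) and −1.37 ± 0.18 on the lower side (adjusted p = 0.00596, edgeR).

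Enolase turns 2-phosphoglycerate into phosphoenolpyruvate. The table holds 2 rows for the alpha form, Eno1 on chromosome 4 and Eno1b on chromosome 18, whose transcripts in the GENCODE annotation are 99.5% identical over 1652 aligned bases, so the split of reads between them is uncertain. Eno1 ranged from 185 to 316 CPM in GMYC tumors, with a median of 218, and from 84.9 to 258 in GTML tumors, with a median of 151, with a fold change of −0.55 ± 0.22 (SE; adjusted p = 0.0874, edgeR). Eno1b ranged from 117 to 179 CPM in GMYC tumors, with a median of 141, and from 30.9 to 140 in GTML tumors, with a median of 58, with a fold change of −1.16 ± 0.27 (SE; adjusted p = 0.0106, edgeR). GTML tumor 2 had the highest GTML value of both rows, 258 and 140 CPM, inside the GMYC range, and the other 7 GTML tumors lay under every GMYC tumor for Eno1b. Without GTML tumor 2 the fold change of Eno1 was −0.69 ± 0.20 (adjusted p = 0.0201, edgeR). Eno1b was at −0.38 ± 0.30 on the higher side of the small nucleolar RNA split and at −1.72 ± 0.32 on the lower side (adjusted p = 0.626 and 0.0166, edgeR).

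Pyruvate kinase M, encoded by Pkm, yields pyruvate and ATP. Pkm ranged from 351 to 442 CPM in GMYC tumors, with a median of 390, and from 289 to 412 in GTML tumors, with a median of 342, with a fold change of −0.18 ± 0.09 (SE; adjusted p = 0.152, edgeR). GTML tumors 1 and 2 lay inside the GMYC range and the other 6 GTML tumors lay at 345 CPM or less. On the 2 sides of the small nucleolar RNA split the fold change was 0.11 (higher share) and −0.40 (lower share). The counts are per gene, so the M1 and M2 splice forms of Pkm cannot be told apart.

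Lactate dehydrogenase A reduces pyruvate to lactate. Ldha ranged from 290 to 361 CPM in GMYC tumors, with a median of 312, and from 246 to 328 in GTML tumors, with a median of 277, and 7 of the 8 GTML tumors lay at 282 CPM or less, under every GMYC tumor. The exception, GTML tumor 1, lay above 5 of the 6 GMYC tumors. The fold change was −0.20 ± 0.08 (SE; adjusted p = 0.0822, edgeR). The coefficient of variation over tumors of a model was 7.42% (GMYC) and 8.56% (GTML) for Ldha, the smallest of the 10 enzymes in both, against 31.8% and 40.6% for Pfkp.

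Compared per length of transcript and by each gene's own row, Ldha, Pkm and Aldoa led the enzymes in both models. Counts on near-identical copies, described further on, are left out of this order and would move Gapdh in it. With them, and not scaled by length, Gapdh stood at 862 CPM in GMYC and 640 in GTML tumors, against 370 and 306 for Ldha. Enolase, as Eno1, Eno1b and a copy together, stood above Ldha in GMYC tumors (493) and below it in GTML tumors (269). In GMYC tumors Ldha stood at 180 ± 13.4 CPM per kilobase (SD, n = 6), Pkm at 161 ± 13.6 and Aldoa at 157 ± 23.4. Ldha exceeded Pkm in 6 of 6 tumors, while Pkm exceeded Aldoa in 3 of 6 and these neighbours do not differ beyond their spread. Eno1 (113 ± 24.3), Gapdh (88.4 ± 12.8) and Eno1b (81.7 ± 13.5) followed, then Pgk1 (67.1 ± 12.4) and Pgam1 (65.8 ± 10.7), which were ordered either way in 3 tumors each. Hk2 (28.2 ± 8.17) and Pfkp (24.5 ± 7.8) had the lowest levels. In GTML tumors the order was the same down to Gapdh, with Ldha at 157 ± 13.4 (SD, n = 8), but the next 5 enzymes lay between 43.6 ± 13.3 (Pgk1) and 29.9 ± 7.87 (Hk2) CPM per kilobase and neighbours among Eno1b, Pfkp, Pgam1 and Hk2 were ordered either way in 3 or more of the 8 tumors. Pgam1 stood above Pfkp on this scale in the GMYC means and below it in the GTML means.

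The highest number of counts per transcript base in any tumor was 1.27 for Ldha, 1.26 for Aldoa and 1.19 for Pkm, against 0.576 for Pgk1, 0.567 for Pgam1 and 0.269 for Hk2. Raw counts of Ldha lay between 2104 and 2242 in all 6 GMYC tumors. How duplicate reads were handled is not given in the sources used here, and the part of counting density in the small fold changes of Ldha, Pkm and Aldoa was not tested.

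Averaged over the 10 enzymes as standardized log2 CPM, GMYC tumor 5 stood highest (1.36 SD units) and GTML tumor 8 lowest (−1.50), followed by GTML tumor 6 (−1.06). GMYC tumor 5 held the highest value of 6 of the 10 enzymes. GTML tumors 1, 2 and 4 had means of 0.15, 0.29 and 0.04, inside the GMYC range of 0.01 to 1.36, so the models overlapped on this average. With 8 enzymes sharing the sign of their difference between models, the average also carries that difference and gets no test.

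Many mouse glycolysis genes have processed pseudogenes, intronless copies of the messenger RNA elsewhere in the genome. Transcripts of 81 other genes of the table matched an enzyme over at least 300 bases with at least 90% identity. Of these, 63 resembled Gapdh, 9 Ldha, 3 Pgam1, 2 Pgk1, 2 Aldoa, 1 Eno1b and 1 Pkm. Gapdh itself held only 13.5% to 17.7% of the counts of its family in any tumor, and Pgk1 held 46.2% to 69%. Of the 76 copies tested, 20 were higher in GMYC and 0 in GTML tumors in edgeR, with a median fold change of −0.41. At an unadjusted p under 0.05 edgeR gave 31 and 3, DESeq2 called 29 and 1, and limma-voom 24 and 0. Among all pseudogenes tested, processed and unprocessed types together, 30.2% were higher in GMYC and 3.34% in GTML tumors. The pooled 20 of 76 copies lie near that share, but the enzymes differed. For Gapdh 9 of 61 tested copies were higher in GMYC tumors, for Ldha 4 of 7 and for Pkm 0 of 1. For Aldoa, Pgk1 and Pgam1 2 of 2 were, and for Eno1b 1 of 1.

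**Figure D2:**
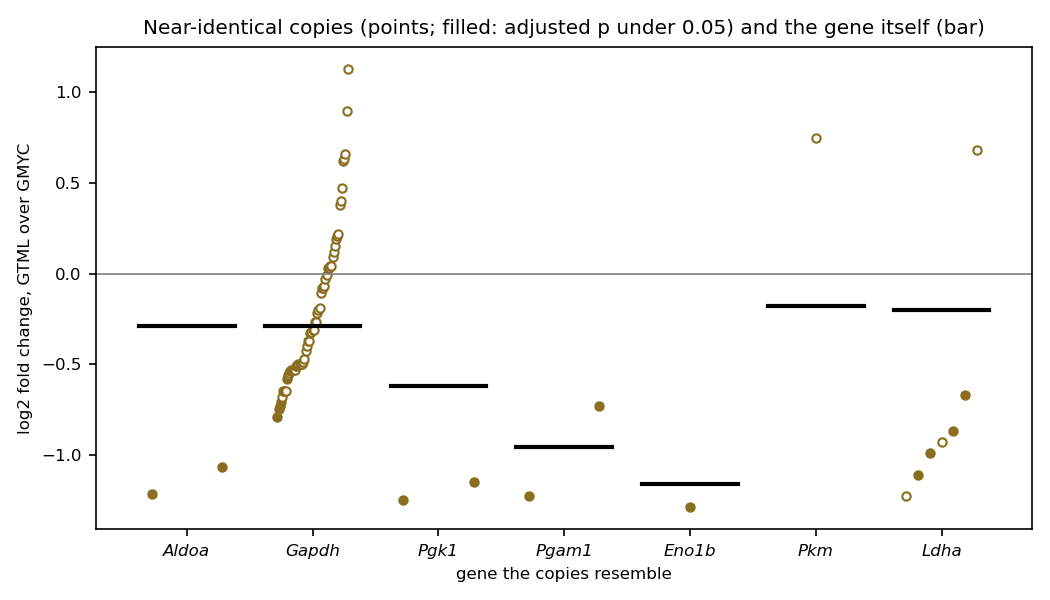
Log2 fold change, GTML over GMYC (y axis), of each tested near-identical copy (points, filled where adjusted p was under 0.05) by the enzyme it resembles (x axis), with the enzyme's own fold change as a bar. The copies of Aldoa and Pgk1 lie below their gene's bar, and all filled points lie below 0.

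The 4 named pseudogenes with the most counts were all higher in GMYC tumors. Pgk1-rs7, whose transcript matched Pgk1 at 100% identity, had 62.2 ± 13.9 CPM (SD, n = 6) in GMYC and 26.2 ± 17.8 (SD, n = 8) in GTML tumors, with a fold change of −1.25 ± 0.33 (SE; adjusted p = 0.0173, edgeR). Pgam1-ps2 was at −1.23 ± 0.21 (adjusted p = 0.00315), Ldha-ps2 at −1.11 ± 0.20 (adjusted p = 0.00387) and Pgam1-ps1 at −0.73 ± 0.23 (adjusted p = 0.0329, edgeR). For Pgam1-ps2 and Ldha-ps2 every GMYC tumor lay above every GTML tumor. The difference of Ldha-ps2 was thus larger than the −0.20 of Ldha itself. Whether reads on these rows came from the pseudogene or from the parent transcript cannot be told apart from the counts.

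The counts were therefore also fitted with each enzyme and its copies summed, and with Eno1, Eno1b and the copy of Eno1b as 1 row. This setting was chosen after the data had been seen. Of the 9 summed rows, 6 were then higher in GMYC tumors and 0 in GTML tumors, against 9.71% and 11.5% of all genes in that fit. At an unadjusted p the counts were the same, and DESeq2 and limma-voom also called 6 and 0. The sums take in pseudogenes. Of all processed and unprocessed pseudogenes tested, 30.2% were higher in GMYC and 3.34% in GTML tumors. Gapdh itself held only 13.5% to 17.7% of the counts of its sum. The part of this gene class in the calls gained by summing was not tested. The summed enolase row lay at 493 ± 91.8 CPM (SD, n = 6) in GMYC and 269 ± 119 (SD, n = 8) in GTML tumors, with a fold change of −0.87 ± 0.24 (SE; adjusted p = 0.0193, edgeR). Summed Pgk1 was at −0.89 ± 0.23 (adjusted p = 0.016) and summed Pgam1 at −1.01 ± 0.14 (adjusted p = 0.00133), the latter again without overlap between the models. Aldoa (−0.37 ± 0.11), Gapdh (−0.43 ± 0.13) and Ldha (−0.27 ± 0.08) also passed as sums, with adjusted p of 0.0261, 0.03 and 0.0251 (edgeR). Pkm (−0.18 ± 0.09, adjusted p = 0.158) did not pass, and Hk2 and Pfkp, which have no copy of this kind, kept their values of 0.08 and 0.53.

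**Figure D3:**
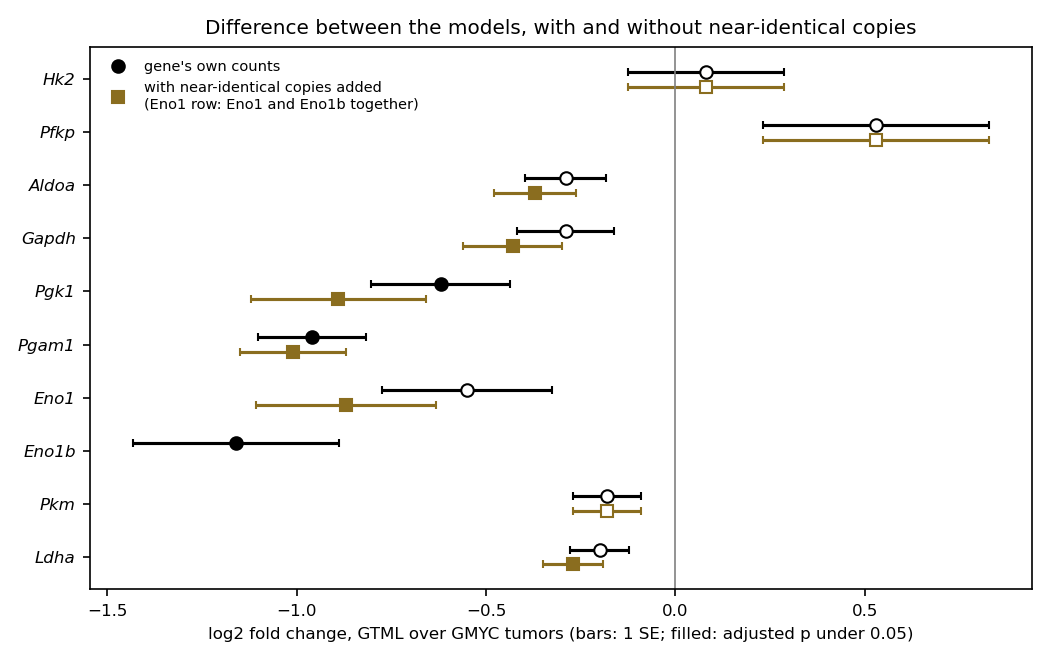
Log2 fold change, GTML over GMYC (x axis), of each enzyme from its own counts (circles) and with near-identical copies added (squares), with bars of 1 SE and filled symbols where adjusted p was under 0.05. Filled circles mark Pgk1, Pgam1 and Eno1b, and filled squares mark Aldoa, Gapdh, Pgk1, Pgam1, Eno1 with Eno1b, and Ldha.

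Most steps of glycolysis are run by several isozymes, and their balance within a tumor needs no normalization between tumors. For 6 pairs, the log2 ratio of counts of the listed enzyme to its isozyme was compared between models by an exact two-sided permutation test over the 14 tumors, adjusted over the 6 pairs. The balance differed for 3 pairs: Hk2 to Hk1, Pfkp to Pfkl and Eno1 to Eno2.

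Hk1 encodes the hexokinase of most adult tissues, the brain included. Counts of Hk2 over Hk1 stood at a log2 ratio of 1.54 ± 0.75 (SD, n = 6) in GMYC and 0.25 ± 0.69 (SD, n = 8) in GTML tumors, a difference of −1.30 (exact permutation p = 0.00866, adjusted 0.026). Per transcript length Hk2 made up 48.8% to 79.5% of Hk2 plus Hk1 in GMYC tumors and 32.7% to 70.4% in GTML tumors, where all tumors but tumor 2 lay at 47.5% or less. The shift came with a difference of Hk1, which lay at 52.3 ± 11.3 CPM (SD, n = 6) in GMYC and 145 ± 61.7 (SD, n = 8) in GTML tumors. Hk1 differed by 1.47 ± 0.26 (SE; adjusted p = 0.00351, edgeR) with no overlap between the models, and Hk2 by 0.08.

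Pfkl and Pfkm encode the liver and muscle types of phosphofructokinase, which form tetramers with each other and with the platelet type. The log2 ratio of Pfkp to Pfkl was −1.30 ± 0.32 (SD, n = 6) in GMYC and −0.27 ± 0.66 (SD, n = 8) in GTML tumors, a difference of 1.03 (exact permutation p = 0.00733, adjusted 0.026). Every GTML tumor but tumor 8, at −1.80, lay above every GMYC tumor. Pfkl had 241 ± 45.1 CPM in GMYC (SD, n = 6) and 162 ± 29.3 in GTML tumors (SD, n = 8), a fold change of −0.58 ± 0.13 (SE; adjusted p = 0.0102, edgeR). The ratio of Pfkp to Pfkm differed by 0.72, which did not pass (exact permutation p = 0.0749, adjusted 0.112), and by 0.95 without GTML tumor 8 (adjusted 0.0122 by the same permutation test).

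Eno2 encodes gamma enolase, the form of mature neurons. The log2 ratio of Eno1 to Eno2 was 2.23 ± 0.88 (SD, n = 6) in GMYC and 0.63 ± 1.12 (SD, n = 8) in GTML tumors, a difference of −1.60 (exact permutation p = 0.0143, adjusted 0.0286). GTML tumor 2, at 2.86, lay with the GMYC tumors and GTML tumor 3, at −1.27, lowest. With Eno1b and its copy added to Eno1 the difference was −1.94 (adjusted 0.0173 by the permutation test). Eno2 alone lay at 53.6 ± 25.9 CPM in GMYC (SD, n = 6) and 106 ± 53.6 in GTML tumors (SD, n = 8) and did not pass (fold change 0.99 ± 0.37, adjusted p = 0.0652, edgeR). Of 5 tested genes of mature cerebellar neurons, 0 were called by edgeR in either direction (unadjusted p under 0.05: 2 higher in GMYC and 1 in GTML; DESeq2 called 1 and 0, limma-voom 0 and 0), and their part in the Eno2 level was not tested.

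The balances of Aldoa to Aldoc, the brain aldolase of astrocytes, and of Ldha to Ldhb, the heart form of lactate dehydrogenase, differed by 0.25 and 0.18 (exact permutation p = 0.669 and 0.445, adjusted 0.669 and 0.534). Aldoa made up 83.4% to 98.2% of the aldolase pair per transcript length in GMYC and 89.2% to 98.3% in GTML tumors. Ldha made up 82.2% to 88.9% and 80% to 92.7% of its pair. The log2 ratio of Aldoa to Aldoc varied widely within both models, with SDs of 1.25 and 0.95. Each of the 3 balances that differed lost its call when GMYC tumor 3 or 5 was left out, with adjusted p of 0.0513 to 0.0699 by the permutation test, and Eno1 to Eno2 also without GMYC tumor 2 (0.0591) or GTML tumor 5 (0.0513). As differences of medians all 3 lost their call as well. The direction of these 3 held in each case.

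**Figure D4:**
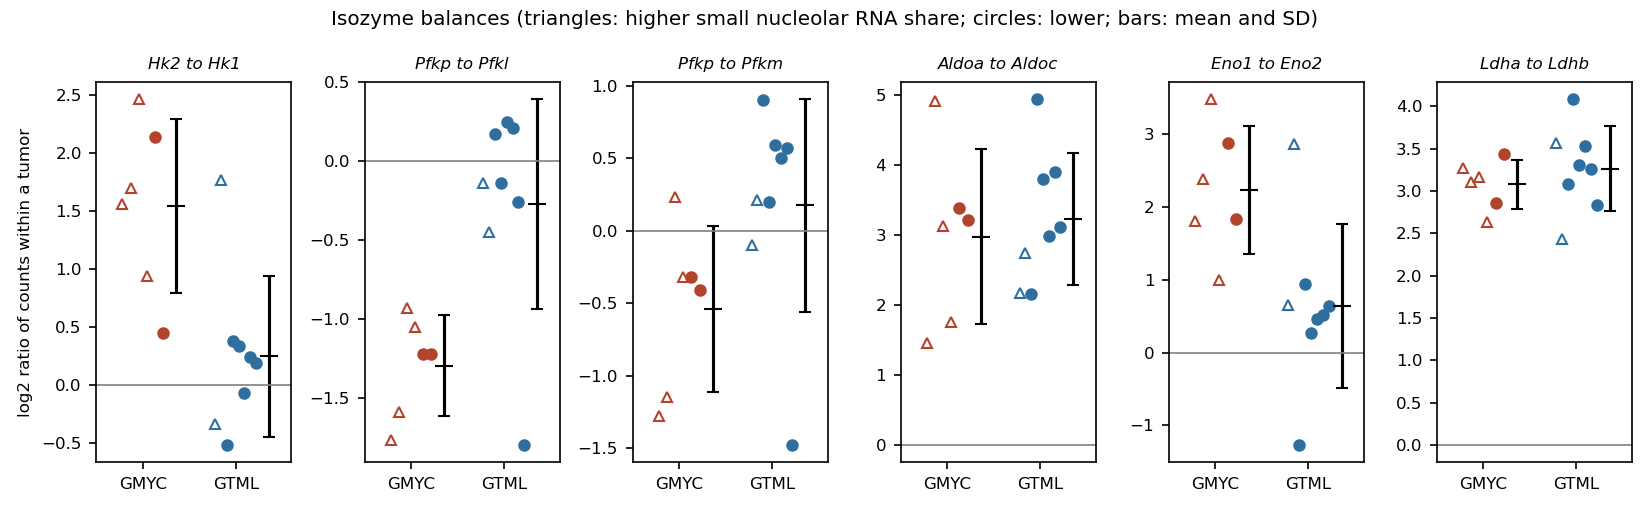
Log2 ratio of counts of each isozyme pair within a tumor (y axis; separate scale in each panel) for the 6 GMYC and 8 GTML tumors, with symbols by small nucleolar RNA share and bars for the mean and SD. For Hk2 to Hk1 and Eno1 to Eno2 most GTML tumors lie below the GMYC tumors with GTML tumor 2 among them, and for Pfkp to Pfkl all GTML tumors but tumor 8 lie above.

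The pathway steps that the 10 enzymes leave out are run by Gpi1, the glucose phosphate isomerase, and Tpi1, the triose phosphate isomerase. Tpi1 was higher in GMYC tumors, at 197 ± 19.4 CPM (SD, n = 6) against 133 ± 19.7 (SD, n = 8), with no overlap (fold change −0.56 ± 0.11, adjusted p = 0.0055, edgeR). Gpi1 was at −0.30 ± 0.12 and did not pass (adjusted p = 0.0703, edgeR). Of the 22 further glycolysis genes in the list, 21 were tested. Of these, 4 were higher in GMYC (Tpi1, Pfkl, Hk3 and Bpgm) and 4 in GTML tumors (Hk1, Eno4 and Pklr among them). Over all genes tested, the shares were 9.71% and 11.5%. Pklr, the pyruvate kinase of liver, and Eno4, an enolase of sperm, were scarce, with GTML means of 5.85 ± 2.7 and 9.62 ± 3.42 CPM (SD, n = 8). Bpgm, which makes 2,3-bisphosphoglycerate, was higher in GMYC tumors (−0.44 ± 0.15, adjusted p = 0.0449, edgeR). It lay at 54.4 ± 9.83 CPM in GMYC (SD, n = 6) and 40 ± 6.98 in GTML tumors (SD, n = 8). The part of blood in its level was not tested.

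Of 18 genes of glucose and lactate transport, 2 were higher in GMYC and 4 in GTML tumors (all genes: 9.71% and 11.5%). Slc2a3, the neuronal glucose transporter GLUT3, lay at 22.9 ± 8.77 CPM in GMYC (SD, n = 6) and 54.3 ± 23.5 in GTML tumors (SD, n = 8; fold change 1.25 ± 0.31, adjusted p = 0.0132, edgeR). Slc16a8, a lactate transporter of the retinal pigment epithelium, differed by 1.66 ± 0.27 (adjusted p = 0.00276) and Slc2a2, the glucose transporter of liver, by 3.14 ± 0.72 from very low levels (adjusted p = 0.0101, edgeR). Bsg, the chaperone of lactate transporters, was higher in GMYC tumors (−0.32 ± 0.10, adjusted p = 0.0278, edgeR).

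Of 24 genes that control glycolytic flux and the entry of pyruvate into mitochondria, 5 were higher in GMYC and 0 in GTML tumors (all genes: 9.71% and 11.5%). Subunits of pyruvate dehydrogenase were among them: Dlat (−0.63 ± 0.10, adjusted p = 0.00213), Pdhb (−0.59 ± 0.13, adjusted p = 0.00942) and Pdha1 (−0.51 ± 0.15, adjusted p = 0.028, edgeR). The splicing factor Srsf3 was at −0.42 ± 0.12 (adjusted p = 0.0194, edgeR). The median of the list was 0.04, the same as that of all genes. Of the genes above 0, 2 had an unadjusted p under 0.05 in edgeR, and DESeq2 called 1 and limma-voom 0.

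Of 7 genes of the pentose phosphate pathway, which branches from glucose 6-phosphate, 2 were higher in GMYC tumors and 0 in GTML tumors at an adjusted or unadjusted p in edgeR, DESeq2 or limma-voom. These were the sugar-shuffling enzymes Tkt (−0.36 ± 0.10, adjusted p = 0.019) and Taldo1 (−0.65 ± 0.15, adjusted p = 0.00909, edgeR). Of 7 gluconeogenesis genes only 3 were expressed enough to be tested, and Pcx, pyruvate carboxylase, was higher in GMYC tumors (−0.85 ± 0.18, adjusted p = 0.00792, edgeR). Of 24 hypoxia-inducible factors and other hypoxia genes, 1 was higher in GMYC (Mxi1, −0.46 ± 0.10, adjusted p = 0.00952) and 1 in GTML tumors (Egln1, 0.62 ± 0.21, adjusted p = 0.0492, edgeR), and their median was 0.04. In the whole set of 112 pathway genes that are not among the 10 enzymes, counting the MYC network with the drivers, 107 were tested, 16 were higher in GMYC and 11 in GTML tumors, and the median was 0.08. Over all genes 9.71% and 11.5% were, so the counts of the lists lie on a background of about this size and the 11 of 107 lie near it. Without GTML tumor 2 the counts were 20 and 15, against 15.1% and 15.6% of all genes. Without GMYC tumor 3 or 5, 10 were higher in GMYC tumors, against 5.65% and 6.43% of all genes, so these counts move with the overall rate of calls.

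**Figure D5:**
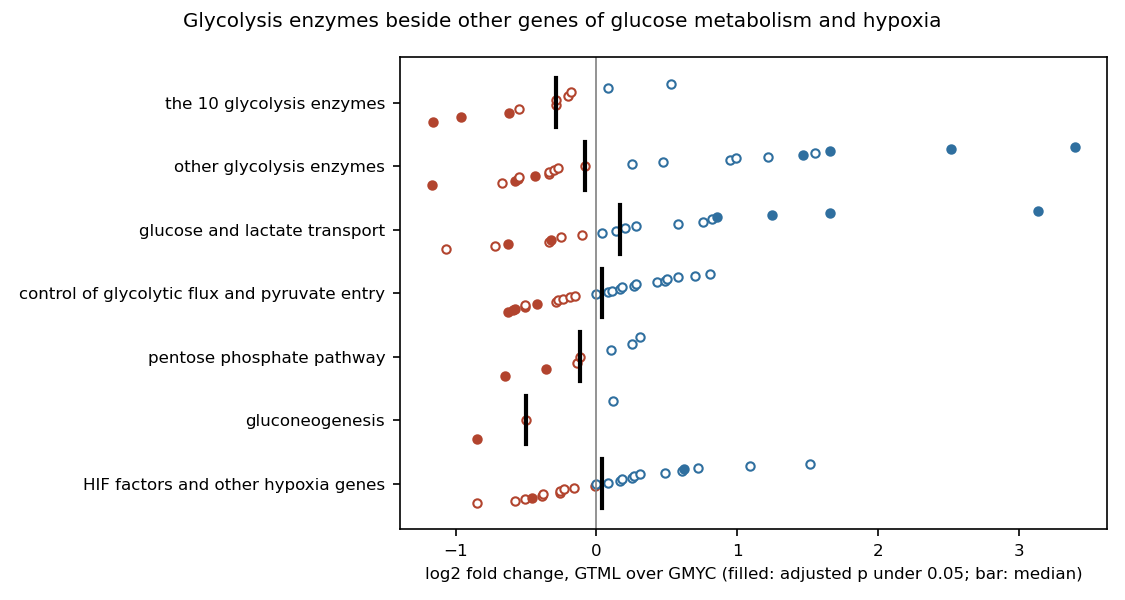
Log2 fold change, GTML over GMYC (x axis), of the 10 enzymes and of the tested genes of each list of glucose metabolism and hypoxia (rows); filled points had an adjusted p under 0.05 and bars give medians. The bar of the 10 enzymes lies at −0.29, and those of the flux control and hypoxia lists at 0.04.

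The genes whose log2 CPM followed the average of the 10 enzymes most closely over the 14 tumors were Atf4, U2af2, Fbl, Gm9266 and Eif4b. Atf4, the transcription factor of the integrated stress response and of amino acid supply, had Pearson r = 0.953 and Spearman rho = 0.952. Within the 6 GMYC tumors r was 0.95 and within the 8 GTML tumors it was 0.918, and without GTML tumor 8 and GMYC tumor 5, the 2 extremes of the average, it was 0.947. The splicing factor U2af2 (r = 0.942), the nucleolar methyltransferase gene Fbl (0.933), the processed pseudogene Gm9266 (0.929) and the translation factor gene Eif4b (0.925) followed. These coefficients describe the top of a ranking over all genes tested, they share the libraries and their normalization, and they carry no test.

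The promoters of 4 enzymes are shown for the motifs bound by the factors named above: Pgam1 and Pgk1 as enzymes that passed the test, Ldha as the only enzyme with the MYC family E-box CACGTG, and Pfkp as the enzyme with the largest fold change above 0. The sequences are RefSeq's, assembly GRCm38.p6, from 250 bases before to 50 after a transcription start, 5′ to 3′ on the gene's strand, while the counts were made on mm9. Capitals mark ACGTG, the core of the hypoxia response element, on either strand, and CACGTG where 2 such matches overlap. The Pgam1 window is chr19:41911621-41911920 (+), that of Pgk1 chrX:106186850-106187149 (+), that of Ldha chr7:46845554-46845853 (+) and that of Pfkp chr13:6648722-6649021 (−).
Pgam1: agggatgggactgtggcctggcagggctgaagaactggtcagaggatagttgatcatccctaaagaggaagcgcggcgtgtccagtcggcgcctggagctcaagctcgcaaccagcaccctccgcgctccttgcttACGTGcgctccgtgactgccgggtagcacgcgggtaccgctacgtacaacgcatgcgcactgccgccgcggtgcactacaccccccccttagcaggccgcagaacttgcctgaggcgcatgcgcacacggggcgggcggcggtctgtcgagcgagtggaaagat
Pgk1: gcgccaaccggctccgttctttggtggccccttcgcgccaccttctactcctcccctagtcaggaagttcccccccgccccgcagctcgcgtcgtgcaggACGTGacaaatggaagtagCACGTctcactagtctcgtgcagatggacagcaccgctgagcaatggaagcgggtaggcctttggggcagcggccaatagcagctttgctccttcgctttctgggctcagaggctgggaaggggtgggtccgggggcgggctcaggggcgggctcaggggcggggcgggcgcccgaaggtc
Ldha: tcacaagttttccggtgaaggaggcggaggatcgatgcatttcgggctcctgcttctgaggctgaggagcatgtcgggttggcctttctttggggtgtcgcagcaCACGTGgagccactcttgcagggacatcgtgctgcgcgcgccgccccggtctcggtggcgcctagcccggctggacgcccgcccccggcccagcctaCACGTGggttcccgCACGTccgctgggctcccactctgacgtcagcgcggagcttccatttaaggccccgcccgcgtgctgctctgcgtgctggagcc
Pfkp: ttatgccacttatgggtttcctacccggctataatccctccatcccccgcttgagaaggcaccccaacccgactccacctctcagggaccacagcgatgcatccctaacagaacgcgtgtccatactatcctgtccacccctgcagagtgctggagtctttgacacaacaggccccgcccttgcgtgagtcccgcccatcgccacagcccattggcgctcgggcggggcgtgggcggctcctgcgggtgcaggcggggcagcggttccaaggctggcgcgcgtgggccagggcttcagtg

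Among the 15 annotated windows of 9 enzymes, 8 windows of 7 enzymes held ACGTG, against 19.6% of all 32851 mouse promoter windows. CACGTG occurred in 1 of the 15, the Ldha window above with 2 matches, against 7.2% of all windows. The Pgk1 window held ACGTG at 150 and 131 bases before the start and that of Pgam1 at 114 bases before it, and the Pfkp window held none. The Ldha window held 5 matches of ACGTG counted on both strands, so each of its 2 CACGTG counts as 2 matches. The relation of the matches to the fold changes was not tested. A match is a run of letters, not a bound site, and nothing about binding was measured.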

How the data were processed

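RNA was measured in biopsies of 6 GMYC and 8 GTML tumors on the Ion Torrent platform. The authors aligned reads to mm9 with STAR and Bowtie and counted them per GENCODE gene with featureCounts (Subread 1.5.2), and deposited whole-number counts without normalization; versions of the aligners differ between the sources, and strand and duplicate handling are not given. Another 18 columns of counts match no sample label and were not used. Symbols and lengths came from the GRCm38 annotation (32620 of 37310 genes, 87.4%), and levels per kilobase use 1 principal transcript per gene. Any 2 tumors of a model differed by more than sampling noise (chi-square per degree of freedom at least 5.67).

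Models were tested against each other in edgeR 4.0.16 (R 4.3.3; TMM, quasi-likelihood test, genes with CPM above 1 in at least 3 tumors, Benjamini-Hochberg adjustment over all genes), tested on simulated counts. Isozyme ratios used counts plus 0.5. Copies were found with blastn 2.17.0. Alternatives were DESeq2 1.42.0, limma-voom 3.58.1, other normalizations, filters and thresholds, leaving out tumors, the replicate number as a block, and a split by small nucleolar RNA at 0.3%. Figures were drawn with matplotlib 3.10.9. The rule named the 10 enzymes, their isozymes, Gpi1, Tpi1, the drivers, at most 4 genes per list, 4 named pseudogenes and the 5 genes most like the average. Globins, Otx2, Tubb3, Lmx1a, Alas2, Pitrm1, Hk3 and Bpgm fall outside it. Enzymes and lists were chosen with earlier results of these data known. The SDs and SEs cover the spread between tumors, counting error included.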

Additional observations from a re-analysis of the deposited data

Results flagged for a closer look

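Of 34 sets of values examined (the 10 enzymes, the 6 isozyme balances and the average of the enzymes, in each model), 4 held a tumor far from the others of its model, all of them GTML tumors. Chance alone gives about 1 such set in 20. Ldha in GTML tumor 1 stood at 328 CPM, against 282 in the nearest GTML tumor. The log2 ratio of Hk2 to Hk1 in GTML tumor 2 was 1.77, against 0.38 in the nearest. In GTML tumor 8 the log2 ratio of Pfkp to Pfkl was −1.80, against −0.45, and that of Pfkp to Pfkm was −1.48, against −0.10, so these last 2 flags rest on the same low Pfkp value.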

How the results depend on the processing

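Among the 10 enzymes, 3 were higher in GMYC tumors under DESeq2, limma-voom, library size without TMM, RLE, the other filters on low counts and the term for the small nucleolar RNA split (where Pgk1 lost its call and Aldoa gained one), and 4 with protein-coding genes only. In these settings 4.96% (no filter on low counts) to 12.1% (DESeq2) of all genes tested were higher in GMYC tumors. The count of enzymes was 5 with TMM from thinly counted genes (where Hk2 was at −0.01) and 6 with copies summed. It was 1 at an adjusted p under 0.01 (all genes: 2.14%) or with an absolute log2 fold change above 1 (all genes: 3.54%). It was 0 within the 6 tumors of higher small nucleolar RNA share and 5 within the 8 others. With TMM from thinly counted genes 12.9% of all genes were higher in GMYC and 9.43% in GTML tumors, against 9.71% and 11.5%. Leaving out 1 tumor gave 2 to 5 enzymes higher in GMYC (5 without GTML tumor 2) and 0 to 1 in GTML tumors (Pfkp, without GTML tumor 8), while the share of all genes higher in GMYC tumors ran from 5.65% to 15.1%. Among the other pathway genes it gave 10 to 20 higher in GMYC and 8 to 15 in GTML tumors (all genes higher in GTML tumors: 6.84% to 15.6%). Hk2 ranged from −0.04 (without GMYC tumor 6) to 0.17.

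Of the other pathway genes, DESeq2 called 17 higher in GTML tumors (all genes: 15.7%). An adjusted p under 0.01 left 7 higher in GMYC and 6 in GTML tumors (all genes: 2.14% and 2.65%). The fold threshold left 2 and 8 (all genes: 3.54% and 8.04%). Within the tumors of higher small nucleolar RNA share 1 and 0 were called, and there Gapdh and Pgk1 were both at 0.09 and Pkm at 0.11, so these turned direction. That side holds 2 GTML tumors, and over all genes 0.0106% were called higher in GMYC tumors.

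Without 1 tumor the balances ranged from −1.51 to −1.11 (Hk2 to Hk1), 0.94 to 1.25 (Pfkp to Pfkl), 0.57 to 0.95 (Pfkp to Pfkm), −1.91 to −1.32 (Eno1 to Eno2), −0.05 to 0.64 (Aldoa to Aldoc) and 0.07 to 0.30 (Ldha to Ldhb). Within the higher small nucleolar RNA share they were −0.95, 1.04, −0.41 for Hk2 to Hk1, Pfkp to Pfkl and Eno1 to Eno2, and −0.36 and −0.04 for Aldoa to Aldoc and Ldha to Ldhb. Within the lower share the first 3 were −1.20, 0.96 and −2.09. As differences of medians they were −1.42, 1.08 and −1.53, with −0.12 for Aldoa to Aldoc. In these settings the 3 called balances kept their direction but not their call. The difference of medians used all 14 tumors, so group size did not put a call out of reach there. Within the sides of the split it did with 4 against 2 tumors, where no adjusted call was within reach. With 2 against 6 the smallest p is 0.0357, at which Hk2 to Hk1 and Eno1 to Eno2 stood (adjusted 0.107 by the exact permutation test). A lost call on a side of the split says nothing about stability. The cause of the other changes was not tested.

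Same-numbered tumors of the models did not deviate together (correlations −0.208 to 0.239), so the numbers do not pair them. With the replicate number as a block (tumors 1 to 6 of each model), 0 enzymes were higher in GMYC and 1 in GTML tumors. Of the other pathway genes 2 and 1 were, against 0.437% and 0.781% of all genes. Unblocked, the same 12 tumors gave 2 enzymes and 10 other pathway genes higher in GMYC, against 5.11% of all genes. The blocked balances were −1.28, 1.28 and −1.58 for Hk2 to Hk1, Pfkp to Pfkl and Eno1 to Eno2, none past the threshold. With 6 pairs the smallest exact permutation p is 0.0312, which Pfkp to Pfkl reached (adjusted 0.0938), so these lost calls say nothing either.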
